A study of Homo sapiens with 60 samples.

Results

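The retinoid genes described here are 9 genes that take up, convert, bind, sense or degrade vitamin A derivatives: STRA6, RDH10, DHRS3, ALDH1A1, ALDH1A3, CRABP2, RARB, CYP26A1 and CYP26B1. They were taken by symbol from a table of 60675 genes, and each symbol matched 1 gene. The genes were chosen by their changes between extract and vehicle groups and between doses in these same libraries. Their values, fold changes and calls are therefore a description of the genes. A call is a threshold on an adjusted p-value, and for genes chosen this way it is no independent evidence of a change.

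The cells were SW1783, an established human astrocytoma line, treated for 24 h and measured by RNA sequencing in 60 libraries. The vehicle was DMSO, with 3 libraries (0.1% per the sample labels, 2% per the text of the series). Every other culture received an ethanol extract. Single herbs were Astragali Radix at 8.8, 44 and 220 µg/mL and Cinnamomi Cortex at 20, 100 and 500 µg/mL. The formulas, each a mixture of herbs, were Palmul-tang, Sagunja-tang, Samul-tang and Sibjeondaebo-tang, given at 20, 100 and 500 µg/mL. These doses are called low, medium and high, and each of the 18 groups had 3 libraries. A further herb, Rehmanniae Radix Preparata, is represented by 1 library at each of 20, 100 and 500 µg/mL. In traditional use Samul-tang and Sagunja-tang are combined to give Palmul-tang. Sibjeondaebo-tang is built on Palmul-tang, with both Cinnamomi Cortex and Astragali Radix as extra herbs, and Rehmanniae Radix Preparata is an ingredient of Samul-tang and so of the 2 formulas built on it. Per the text of the series, an extract whose IC20 lay below the standard top dose was given at that IC20 and at dilutions of it, so the Astragali Radix doses are not matched to the others and its values are only set side by side with theirs.

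Retinol enters cells in part through the membrane protein STRA6. RDH10 oxidises retinol to retinal, DHRS3 reduces retinal back to retinol, and the aldehyde dehydrogenases ALDH1A1 and ALDH1A3 oxidise retinal irreversibly to retinoic acid. CRABP2 carries retinoic acid to nuclear receptors such as RARB, and the cytochromes CYP26A1 and CYP26B1 degrade it. In many cell types retinoic acid raises the transcription of DHRS3, the CYP26 genes, RARB, STRA6 and CRABP2, and in glioma ALDH1A3 is known as a marker of mesenchymal cells.

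On GRCh38 all 9 genes are annotated as protein-coding. DHRS3 lies on chromosome 1 at 12567910 to 12617731, minus strand, and CRABP2 on chromosome 1 at 156699606 to 156705816, minus strand. CYP26B1 spans 72129238 to 72148038 of chromosome 2, minus strand, and RARB spans 25174332 to 25597932 of chromosome 3, plus strand. ALDH1A1 lies on chromosome 9 at 72900662 to 73080442, minus strand. CYP26A1 occupies 93073475 to 93077890 of chromosome 10, plus strand. STRA6, minus strand, and ALDH1A3, plus strand, share chromosome 15, at 74179466 to 74212267 and 100877714 to 100916626.

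Retinoic acid receptors bind direct repeats of a short half-site, so the start-site windows of these genes were searched for such repeats. The windows, from RefSeq on GRCh38.p14, run from 250 bases before to 50 bases after a start site. The half-sites were AGGTCA and its common variants, which were AGTTCA first, GGGTCA next and GGTTCA last. They were searched in any pair, on both strands, 5 or 2 bases apart. Of 18 windows of 8 of these genes, 2 held a match, both with 5 bases between the half-sites. In RARB the match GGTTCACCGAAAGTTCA lies 53 to 37 bases before the start, on the strand of the gene. In CYP26A1 the match, on the opposite strand, lies 90 to 74 bases before the start and reads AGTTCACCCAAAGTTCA. Over all 35116 windows, 0.0883% held a repeat spaced by 5 and 0.0399% one spaced by 2. These pairs of half-sites are a narrow search, and no match says only that these letters are not in a window. The RARB and CYP26A1 windows are printed for their match, in capitals, that of CYP26B1 because this gene had the steepest called dose step described below, and 1 of the 3 DHRS3 windows because DHRS3 had the steepest steps outside Astragali Radix. Each window reads 5′ to 3′ along the gene.
RARB chr3:25428013-25428312 (+): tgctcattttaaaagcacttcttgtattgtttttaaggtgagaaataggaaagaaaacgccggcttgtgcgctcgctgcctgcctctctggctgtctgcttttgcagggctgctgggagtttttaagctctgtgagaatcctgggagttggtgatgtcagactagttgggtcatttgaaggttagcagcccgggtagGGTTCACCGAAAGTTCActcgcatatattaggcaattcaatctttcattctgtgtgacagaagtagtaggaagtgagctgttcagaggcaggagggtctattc
CYP26A1 chr10:93073643-93073942 (+): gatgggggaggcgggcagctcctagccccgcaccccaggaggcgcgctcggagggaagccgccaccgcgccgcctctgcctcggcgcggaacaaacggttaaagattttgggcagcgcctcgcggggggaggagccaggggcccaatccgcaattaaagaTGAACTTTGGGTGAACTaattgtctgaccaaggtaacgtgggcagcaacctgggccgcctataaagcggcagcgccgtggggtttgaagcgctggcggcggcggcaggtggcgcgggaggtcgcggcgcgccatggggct
DHRS3 chr1:12616740-12617039 (-): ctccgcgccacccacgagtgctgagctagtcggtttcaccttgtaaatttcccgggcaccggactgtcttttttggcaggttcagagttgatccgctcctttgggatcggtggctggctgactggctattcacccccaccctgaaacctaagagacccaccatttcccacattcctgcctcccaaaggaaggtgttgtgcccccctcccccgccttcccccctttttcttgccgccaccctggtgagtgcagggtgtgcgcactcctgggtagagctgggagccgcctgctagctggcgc
CYP26B1 chr2:72147813-72148112 (-): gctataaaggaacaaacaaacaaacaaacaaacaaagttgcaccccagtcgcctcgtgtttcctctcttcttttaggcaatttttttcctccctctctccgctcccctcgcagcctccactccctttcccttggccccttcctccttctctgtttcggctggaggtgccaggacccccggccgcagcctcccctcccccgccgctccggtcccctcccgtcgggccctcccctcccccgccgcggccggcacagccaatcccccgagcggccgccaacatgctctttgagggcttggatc

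Library totals ran from 19793387 to 37152410 counts. Of 9 astrocyte and glial markers, VIM, CD44, SOX9, SLC1A3 and NES were measured in quantity, whereas GFAP, S100B, AQP4 and ALDH1L1, which define mature astrocytes, were at or near 0 (medians of 0.080, 0.069, 0 and 0 CPM, read counts scaled to library size). Of 10 markers of neurons, immune, endothelial and epithelial cells, SNAP25 (median 22.0 CPM) and PTPRC (median 9.66 CPM) made up most of the signal, and AIF1, CDH5, EPCAM and CDH1 were near 0. The summed level of these 10 markers was 29.1 to 31.2 CPM in the vehicle and 13.6 to 14.8 CPM at the high dose of Astragali Radix. This sum was also lower at the high than at the low dose, without overlap, for Sibjeondaebo-tang (24.7 to 26.7 against 35.3 to 35.9 CPM), Sagunja-tang (26.8 to 30.7 against 34.03 to 35.8) and Palmul-tang (29.4 to 31.8 against 34.8 to 37.4). The glial markers summed to 8414 to 8714 CPM in the vehicle, 9723 to 11304 at high-dose Astragali Radix and 6152 to 8052 in the other 17 groups. The 3 low-dose Astragali Radix libraries differed from each other more than those of any other group. The deviation of a library from the mean of the others of its group had an SD over genes of 0.663, 0.838 and 0.686 (log2 scale) in replicates 1, 2 and 3, against 0.2997 to 0.453 in the other 54 libraries. Measured from the mean of all libraries outside low- and high-dose Astragali Radix, the SD was 0.638, 0.867 and 0.284 in these replicates and 1.05 to 1.07 at the high dose. Gene length and GC content accounted for 15.7% and 37.97% of the variance of the latter deviations in low-dose replicates 1 and 2, and for at most 3.21% in any other library. Mitochondrial genes took 1.38% of counts in replicate 2 of that group and 4.97% to 7.18% in every other extract library. In the vehicle they took 7.55% to 8.04%, above every extract library. Counts of calls and called values that involve low-dose Astragali Radix are therefore also given without replicates 1 and 2. The part of RNA quality in the results was not tested.

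Group differences are log2 ratios from one edgeR fit over 57 libraries, printed as log2 ± SE, and a gene was called when its Benjamini-Hochberg adjusted p over the 17676 genes tested was below 0.05. Per the sample descriptions the vehicle belongs to a sample set that no extract shares, so a difference from the vehicle and a difference between sets cannot be told apart. All 18 comparisons with the vehicle use the same 3 vehicle libraries. Bulk RNA averages over the culture, so a change in some cells and a change in all cells cannot be told apart. Comparisons between doses of an extract use no vehicle library and stay within a set. They are given per 5-fold dose step, as the log2 ratio of high to low dose divided by 2. Nothing in the labels says that the 3 libraries of a group came from separate cultures, so the SEs measure a spread between libraries only. That spread is pooled over all 57 libraries of the fit, low-dose Astragali Radix included, and is not that of the groups compared alone. Leaving out libraries of low-dose Astragali Radix can therefore also move calls between other groups.

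In vehicle-treated cells the retinal dehydrogenase ALDH1A3 was by far the most abundant of the 9 transcripts. Per kilobase of the longest annotated transcript the vehicle held 167 CPM of ALDH1A3, 33.6 of STRA6, 17.5 of DHRS3, 9.84 of RDH10, 7.53 of CYP26B1, 6.44 of RARB and 4.71 of CRABP2. ALDH1A1 and CYP26A1 were almost undetected. ALDH1A1 collected 42 counts over all 60 libraries, at most 5 in one, and none in 29 libraries. CYP26A1 collected 31 counts, at most 2 in a library, and none in 35. Both fell below the filter on low counts, which left 7 of the 9 genes in the test, and a change in either was not detectable at this depth.

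**Figure D1:**
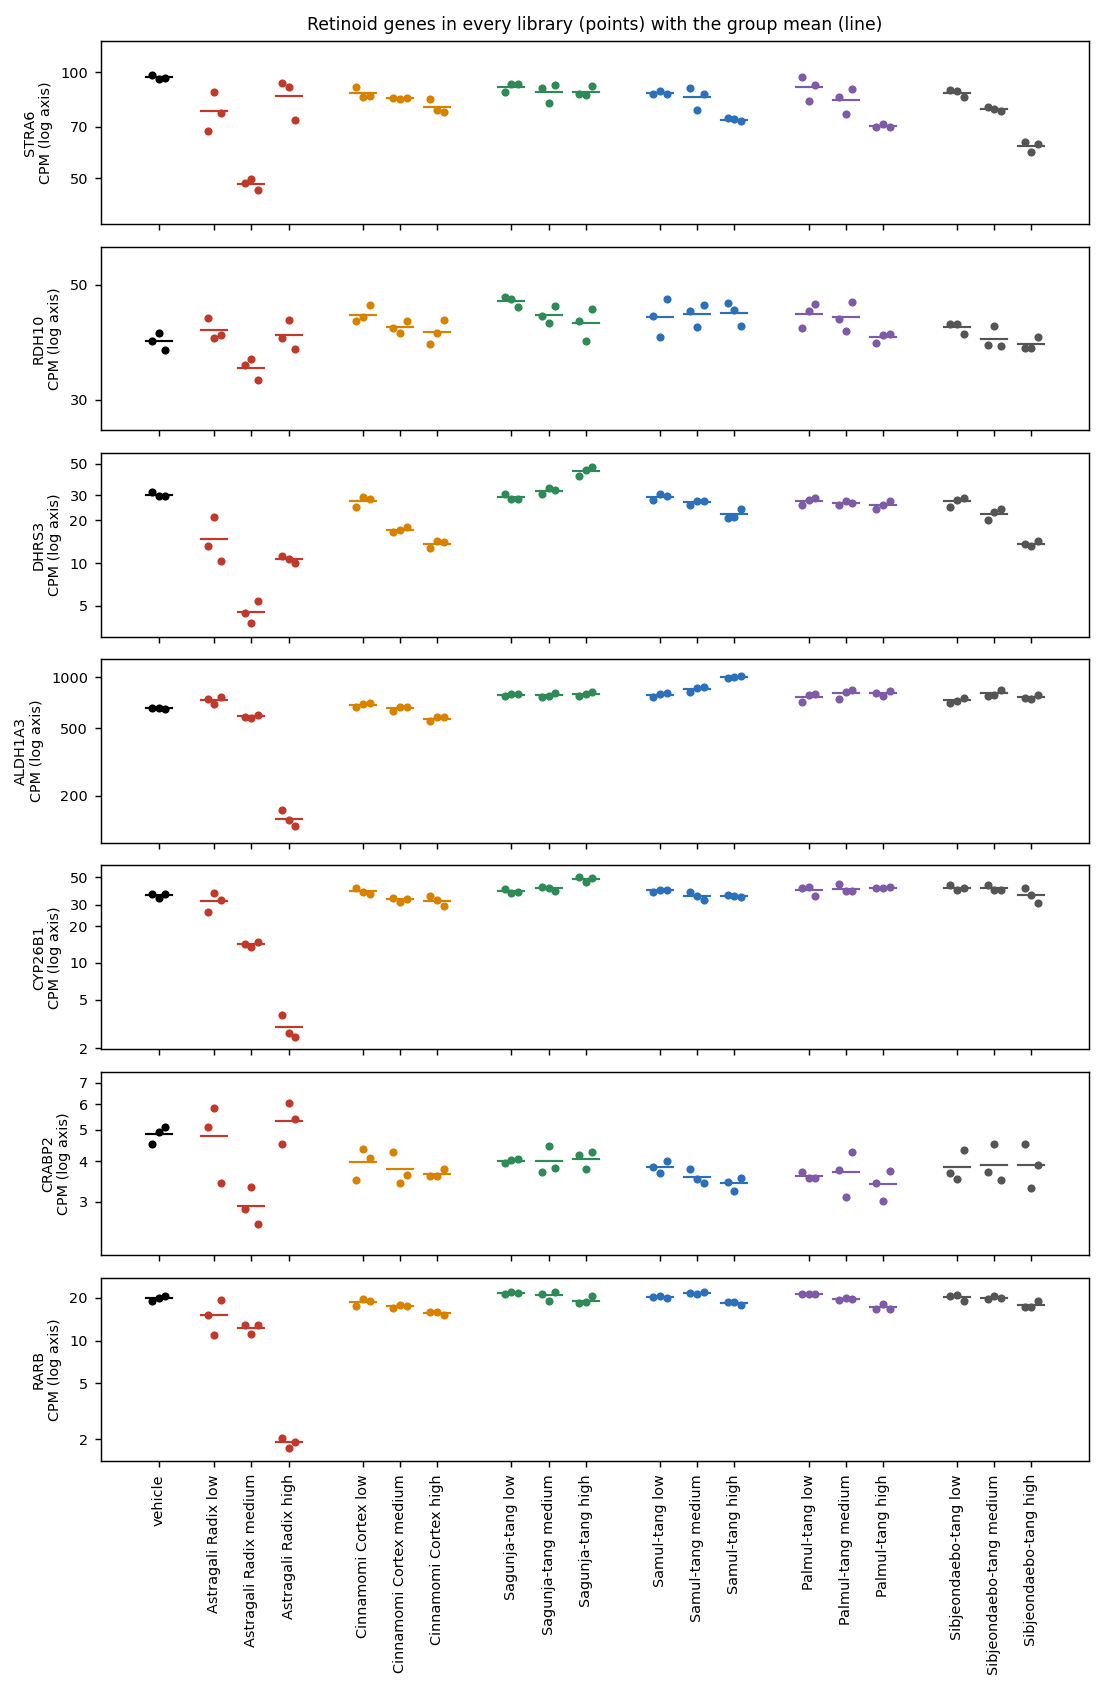
Level of the 7 tested retinoid genes in each library (points; CPM, log axis) with the group mean (line), by extract and dose. DHRS3 falls with dose for Cinnamomi Cortex and Sibjeondaebo-tang and rises for Sagunja-tang, and ALDH1A3, CYP26B1 and RARB drop at the high dose of Astragali Radix.

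DHRS3, the retinal reductase, moved in opposite directions with different extracts. It fell with dose for Cinnamomi Cortex and Sibjeondaebo-tang, rose with dose for Sagunja-tang and was low at every dose of Astragali Radix. The 3 vehicle libraries held 31.6, 29.6 and 29.4 CPM. With Cinnamomi Cortex the libraries held 24.7, 28.97 and 27.95 CPM at the low dose, 16.4, 17.1 and 17.8 at the medium dose and 12.7, 14.3 and 13.97 at the high dose. The 3 doses did not overlap, and the medium and high doses lay below every vehicle library. The high-dose level was 2.21-fold lower than the vehicle (log2 -1.15 ± 0.12), and the change per dose step was -0.50 ± 0.06, called. In that dose comparison 0.441% of all genes were called, and 2 of the 7 tested retinoid genes were, DHRS3 and ALDH1A3.

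Sibjeondaebo-tang, the formula that contains Cinnamomi Cortex and Astragali Radix, gave DHRS3 levels of 24.9, 27.7 and 28.7 CPM at the low, 19.96, 22.9 and 23.9 at the medium and 13.7, 13.1 and 14.2 at the high dose. The doses again formed 3 ranges without overlap. The change per step was -0.49 ± 0.06, and the high dose stood 2.21-fold below the vehicle (log2 -1.14 ± 0.12), both called. Across the transcriptome the deviations of the Sibjeondaebo-tang libraries ran with gene length, with rank correlations of -0.159, -0.147 and -0.234 at the high and 0.126, 0.120 and 0.178 at the low dose. After trends with length and GC content were removed, both calls of DHRS3 held. The summed markers of other cell types were lower at the high than at the low dose here too, as given above, and their part in the DHRS3 values was not tested. In Palmul-tang, which lacks Astragali Radix and Cinnamomi Cortex, DHRS3 read 25.5, 27.5 and 28.4 CPM at the low and 23.8, 25.4 and 27.5 at the high dose, ranges that overlapped. Its change per step there was -0.04 ± 0.06, with a 95% interval of -0.16 to 0.07, and was not called. The direct comparison of the 2 formulas at 500 µg/mL, which share a sample set, gave log2 -0.90 ± 0.12 for Sibjeondaebo-tang against Palmul-tang, called. The part of Cinnamomi Cortex and Astragali Radix in this difference was not tested.

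Sagunja-tang was the extract with which DHRS3 rose. Its libraries read 30.5, 28.1 and 28.2 CPM at the low, 30.6, 33.7 and 32.5 at the medium and 40.8, 45.4 and 47.4 at the high dose. Every high-dose library lay above every other library of the 57. The change per step was 0.31 ± 0.05 and the high dose was 1.47-fold above the vehicle (log2 0.56 ± 0.11), both called. The summed markers of other cell types were lower at the high than at the low dose of Sagunja-tang. Their part in this rise was not tested. With Samul-tang DHRS3 went the other way, from 27.8, 30.7 and 29.5 CPM at the low to 20.7, 21.2 and 23.97 at the high dose. Its change per step with Samul-tang was -0.21 ± 0.06, called, but 5 of the 6 leave-outs of a single library ended that call at values of -0.24 to -0.19. At 500 µg/mL DHRS3 was 2.03-fold higher with Sagunja-tang than with Samul-tang (log2 1.02 ± 0.11), and Palmul-tang lay below Sagunja-tang by log2 -0.80 ± 0.11, both called. Palmul-tang against Samul-tang was 0.22 ± 0.11, not called. The comparisons of Palmul-tang with Sagunja-tang and Samul-tang cross sample sets.

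Astragali Radix gave the lowest DHRS3 levels of the series, and not at its highest dose. The medium dose read 4.42, 3.797 and 5.38 CPM, the high dose 11.2, 10.7 and 10.1 and the low dose 13.1, 20.9 and 10.4. All 9 of these libraries lay below the vehicle, and the medium dose lay below both other doses. Against the vehicle DHRS3 was 6.63-fold lower at the medium dose (log2 -2.73 ± 0.13), 2.82-fold lower at the high dose (-1.50 ± 0.12) and 2.06-fold lower at the low dose (-1.04 ± 0.12), all called. Without low-dose replicates 1 and 2 the low-dose value was -1.53, still called, a value that takes the spread of the lone library from the rest of the fit. With only the low dose and the vehicle in the fit it was -1.02 and not called. The step from low to high dose does not describe this course. It was -0.23 ± 0.06 and called, -0.06 and not called without low-dose replicate 2, and 0.015 without both low-dose libraries. The call of the step was also lost with only the 2 dose groups in the fit (-0.23) and after removal of length and GC trends (-0.09).

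RDH10, the enzyme that opposes DHRS3 by oxidising retinol, was called in few comparisons. RDH10 spans 73294612 to 73325281 of chromosome 8, plus strand. The vehicle read 38.9, 40.3 and 37.4 CPM, and the group means of the extracts ran from 34.6 CPM at medium-dose Astragali Radix to 46.5 CPM at low-dose Sagunja-tang. In the order of the 19 group means, each neighbouring pair of groups overlapped except medium-dose Astragali Radix at the bottom. Against the vehicle RDH10 was called in 2 groups, at low-dose Sagunja-tang (0.26 ± 0.06) and high-dose Samul-tang (0.18 ± 0.06), and 4 of 6 leave-outs ended the second call at values of 0.16 to 0.23. That second call was also lost with no filter on low counts. Without low-dose Astragali Radix replicates 1 and 2 in the shared fit RDH10 was called in 9 groups, 8 higher and 1 lower. No dose step and no formula comparison of RDH10 was called with all libraries.

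**Figure D2:**
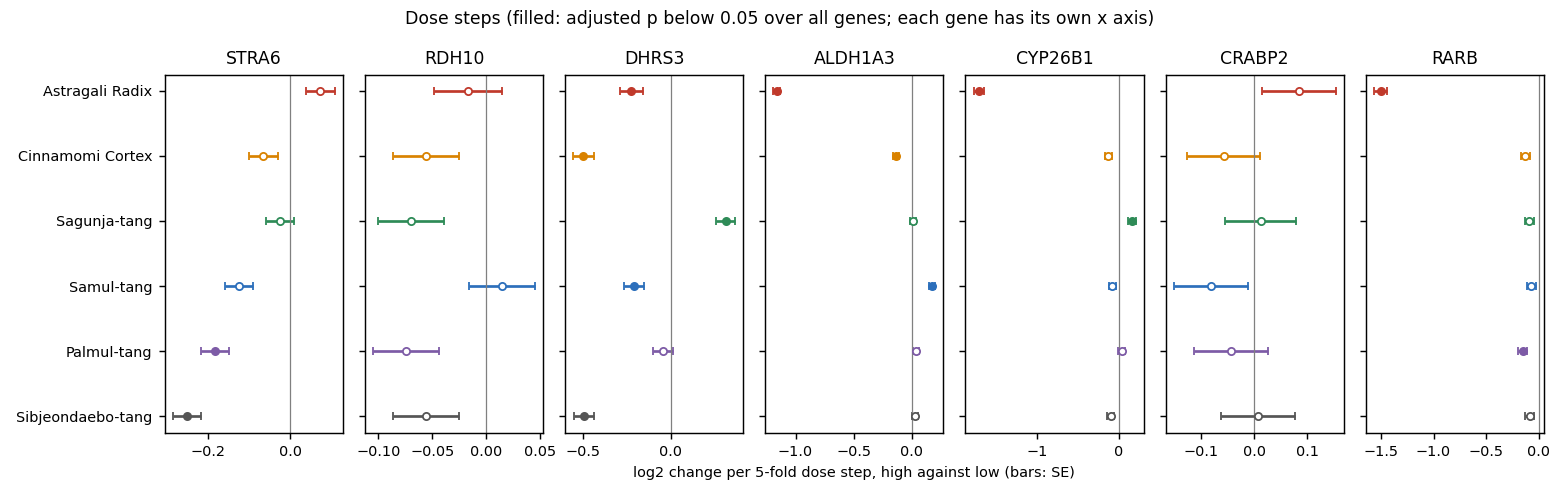
Change per 5-fold dose step of the 7 tested retinoid genes within each extract (log2, high against low dose divided by 2; points with SE bars, filled where called, each gene on its own axis). DHRS3 lies below 0 for Cinnamomi Cortex and Sibjeondaebo-tang and above 0 for Sagunja-tang, and the steps of ALDH1A3, CYP26B1 and RARB for Astragali Radix are all below -1.

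ALDH1A3, which makes retinoic acid from retinal, was highest with high-dose Samul-tang and lowest with high-dose Astragali Radix among the groups of 3 libraries. The vehicle held 659.8, 656 and 648 CPM. Samul-tang libraries held 758, 798 and 800.4 CPM at the low, 819.7, 863 and 877 at the medium and 990.4, 997 and 1018 at the high dose. The high dose exceeded every other library of the 57, and the change per step was 0.18 ± 0.03, called. Against the vehicle high-dose Samul-tang was 1.53-fold higher (log2 0.61 ± 0.05). At 500 µg/mL ALDH1A3 was lower with Sagunja-tang than with Samul-tang by log2 -0.33 ± 0.05 and lower with Palmul-tang than with Samul-tang by log2 -0.32 ± 0.05, both called. Palmul-tang against Sagunja-tang was 0.01 ± 0.05, not called.

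With Sagunja-tang, Palmul-tang and Sibjeondaebo-tang ALDH1A3 stood above the vehicle by similar amounts at each dose, with no called dose step. The log2 values against the vehicle were 0.27, 0.26 and 0.29 for low, medium and high Sagunja-tang, all called. For Palmul-tang they were 0.22, 0.29 and 0.30, all called, of which the low-dose call was lost with no filter on low counts. For Sibjeondaebo-tang they were 0.15, not called, and 0.29 and 0.21, called. Such values rest wholly on the comparison with the vehicle, where extract and sample set cannot be told apart. Cinnamomi Cortex lowered the level with dose, from 667, 691 and 704 CPM at the low to 548, 578 and 581 at the high dose (step -0.14 ± 0.03, called). That call was lost without high-dose replicate 1 or low-dose replicate 3 (steps over the leave-outs -0.15 to -0.12), and with no filter on low counts.

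With Astragali Radix ALDH1A3 read 746, 697 and 759 CPM at the low, 582, 575 and 601 at the medium and 164, 144 and 132 at the high dose. The high-dose libraries lay far below all others, 4.46-fold under the vehicle (log2 -2.16 ± 0.06). The low dose was 0.17 ± 0.05 against the vehicle and the medium dose -0.16 ± 0.05, both called. The low-dose value was 0.23 and still called without replicates 1 and 2. Its call was lost without vehicle replicate 3 (0.15), without low-dose replicate 3 (0.12), with no filter on low counts (0.15) and with only the 2 groups in the fit (0.18). For the medium-dose call 5 of 6 leave-outs ended it at values of -0.18 to -0.15. It was also lost with no filter on low counts and after removal of length and GC trends. The step of -1.16 ± 0.03 was called, also at -1.19 without the 2 low-dose libraries.

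CYP26B1, the only measurable enzyme of retinoic acid clearance here, fell with dose of Astragali Radix. The libraries read 36.5, 34.03 and 36.3 CPM in the vehicle, 26.3, 37.4 and 32.6 at the low, 14.2, 13.5 and 14.9 at the medium and 3.77, 2.66 and 2.46 at the high dose. The 3 dose ranges did not overlap, and the low dose overlapped the vehicle. The high dose was 11.95-fold lower than the vehicle (log2 -3.58 ± 0.12) and the medium dose 2.502-fold lower (-1.32 ± 0.10), both called. The step was -1.71 ± 0.06, and -1.74 without the 2 low-dose libraries, called in both cases. Every high-dose library of Astragali Radix held less CYP26B1 than any of the other 54 libraries in the fit.

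Sagunja-tang raised CYP26B1, as it raised DHRS3. The libraries read 39.9, 37.4 and 38.1 CPM at the low, 42.1, 41.2 and 38.9 at the medium and 50.1, 45.5 and 49.5 at the high dose. The high dose was 1.36-fold above the vehicle (log2 0.44 ± 0.09) and 1.38-fold above Samul-tang at the same dose (log2 0.46 ± 0.09), both called. The step of 0.17 ± 0.04 was called, but 4 of 6 leave-outs ended that call at values of 0.15 to 0.19. As for DHRS3, the part of the lower marker sum at high-dose Sagunja-tang was not tested. No other comparison of CYP26B1 was called with all libraries, whereas without low-dose Astragali Radix replicates 1 and 2 it was higher than the vehicle in 5 groups instead of 1. The remaining group means lay between 32.1 CPM at low-dose Astragali Radix and 41.3 CPM at high-dose Palmul-tang.

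RARB, the receptor gene with the repeat in its window, stayed near the vehicle level in most groups and was almost lost at the high dose of Astragali Radix. It read 19.1, 19.97 and 20.5 CPM in the vehicle, and 15.2, 10.9 and 19.4 at the low, 12.8, 11.1 and 12.8 at the medium and 2.06, 1.75 and 1.91 at the high dose of Astragali Radix. The high dose was 10.5-fold below the vehicle (log2 -3.39 ± 0.12) and the medium dose 1.62-fold below (-0.70 ± 0.09), both called. The low-dose value of -0.38 ± 0.09, called, was -0.02 and not called without replicates 1 and 2, and -0.38 and not called with only the 2 groups in the fit. The step was -1.50 ± 0.06, or -1.68 without them, called in both cases. High-dose Cinnamomi Cortex read 15.8, 15.9 and 15.2 CPM, below all vehicle libraries (log2 -0.35 ± 0.09, called). The step with Palmul-tang, -0.15 ± 0.04, was called, and every leave-out of a single library ended that call at values of -0.17 to -0.14. The call was also lost with no filter on low counts. Group means outside Astragali Radix ran from 15.6 to 21.8 CPM, and most neighbours in that order overlapped. Of those 15 extract groups 1 was called against the vehicle, and 5 were without low-dose Astragali Radix replicates 1 and 2 in the shared fit.

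CRABP2, the carrier of retinoic acid, had the lowest level per kilobase of the tested genes in the vehicle. The vehicle read 4.54, 4.93 and 5.11 CPM, high-dose Astragali Radix 4.52, 6.07 and 5.41, low-dose Astragali Radix 5.11, 5.86 and 3.41 and medium-dose Astragali Radix 2.84, 3.32 and 2.56. Medium-dose Astragali Radix was 1.68-fold below the vehicle (log2 -0.75 ± 0.14, called), while the high dose was 0.14 ± 0.14, not called. The step of 0.08 ± 0.07 was not called, and was 0.31 and called without low-dose replicates 1 and 2. The low dose itself was -0.03 ± 0.14 against the vehicle, not called, and -0.50 and called without them. With all formulas and Cinnamomi Cortex the group means of CRABP2, 3.39 to 4.07 CPM, lay under the vehicle mean at every dose. Of these 15 groups 5 were called against the vehicle, from -0.41 at high-dose Cinnamomi Cortex to -0.52 at high-dose Palmul-tang, and 10 were without low-dose Astragali Radix replicates 1 and 2 in the shared fit. No dose step of CRABP2 was called in any of these 5 extracts. Leaving out single libraries ended 5 of 6 times the call for high-dose Cinnamomi Cortex (values of -0.45 to -0.36), 4 of 6 times that for medium-dose Samul-tang (-0.48 to -0.40) and each time that for low-dose Palmul-tang (-0.48 to -0.39). These calls were also lost with no filter on low counts.

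STRA6, the retinol transporter, was below the vehicle in most groups and fell with dose for Palmul-tang and Sibjeondaebo-tang. The vehicle read 98.5, 96.04 and 96.6 CPM and no group mean exceeded it. In these differences from the vehicle, extract and sample set cannot be told apart. Sibjeondaebo-tang read 89.1, 88.7 and 84.9 CPM at the low, 79.8, 78.7 and 77.6 at the medium and 63.5, 59.3 and 62.6 at the high dose, 3 ranges without overlap (step -0.25 ± 0.03, called). As for DHRS3, the summed markers of other cell types were lower at this high dose, and their part was not tested. Palmul-tang read 96.9, 83.1 and 92.01 CPM at the low and 70.1, 71.3 and 69.8 at the high dose (step -0.18 ± 0.03, called). The marker sum was lower at the high than at the low dose of Palmul-tang too, and its part was not tested. The steps with Samul-tang (-0.12 ± 0.03) and Cinnamomi Cortex (-0.07 ± 0.03) were not called, although their high doses were called against the vehicle at -0.40 ± 0.07 and -0.28 ± 0.07. The Samul-tang step was called with DESeq2, after removal of length and GC trends and with only the groups compared in the fit, each at -0.12. Samul-tang libraries ran from 86.6 to 88.5 CPM at the low and from 72.8 to 74.0 at the high dose. At 500 µg/mL STRA6 was higher with Sagunja-tang than with Samul-tang (0.26 ± 0.07) and lower with Palmul-tang than with Sagunja-tang (-0.32 ± 0.07), both called. The first of these calls was lost in 4 of 6 leave-outs (values of 0.23 to 0.27) and the second without Sagunja-tang replicate 3, within -0.34 to -0.30. The first was also lost with no filter on low counts.

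With Astragali Radix STRA6 was lowest at the medium dose, as was DHRS3, although the medium dose was not tested against the others. The medium dose read 48.6, 49.7 and 46.3 CPM, below every other library of the 57, against 68.3, 88.1 and 76.6 at the low and 93.6, 90.8 and 73.5 at the high dose. The medium dose was 2.01-fold below the vehicle (log2 -1.01 ± 0.07). The low dose was -0.32 ± 0.07, or -0.33 without replicates 1 and 2, called in both cases. It was -0.57 and called after removal of length and GC trends, and -0.31 and not called with only the 2 groups in the fit. The high dose, -0.17 ± 0.07, was called, but not without high-dose replicate 3 (-0.09), nor with DESeq2, with relative log expression scaling or after removal of length and GC trends. Leave-outs of 1 library also ended the STRA6 calls of medium-dose Cinnamomi Cortex, 6 of 6 times, and of medium-dose Palmul-tang, 5 of 6 times, at values of -0.20 to -0.18 and -0.26 to -0.15. Both were also lost with no filter on low counts, and that of Cinnamomi Cortex after removal of length and GC trends.

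**Figure D3:**
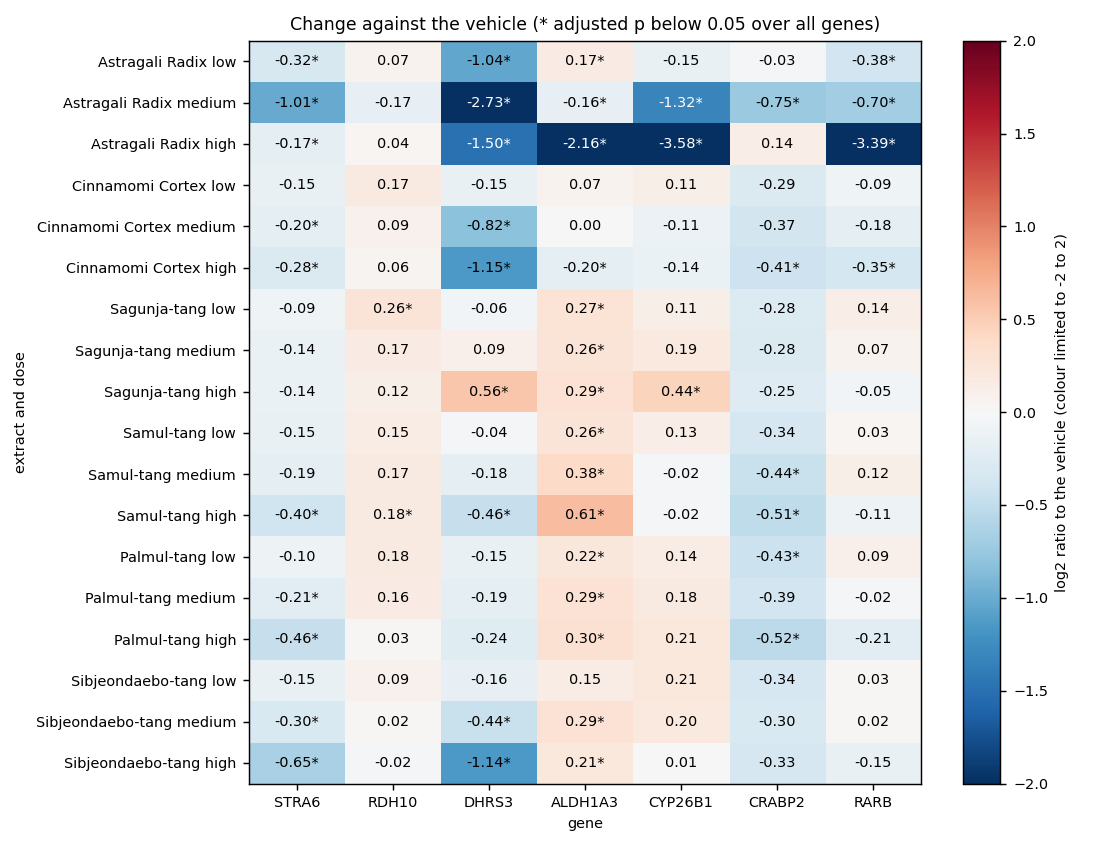
Log2 ratio to the vehicle of the 7 tested retinoid genes (columns) in the 18 extract groups (rows), with the value in each cell and an asterisk where the gene was called. The strongest colours are in the Astragali Radix rows, and DHRS3 runs from -2.73 at medium-dose Astragali Radix to 0.56 at high-dose Sagunja-tang, both called.

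Counts of called genes among the 7 tested are set here beside the share of all genes called in the same comparison. At the high doses 5 were called for Astragali Radix, where 68.2% of all genes were called, 5 for Cinnamomi Cortex (16.3%), 3 for Palmul-tang (20.3%), 3 for Sagunja-tang (22.7%), 5 for Samul-tang (19.7%) and 3 for Sibjeondaebo-tang (23.1%). At the medium doses the counts were 6 for Astragali Radix (16.6% of all genes), 2 for Cinnamomi Cortex (13.0%), 2 for Palmul-tang (10.2%), 1 for Sagunja-tang (13.5%), 2 for Samul-tang (12.1%) and 3 for Sibjeondaebo-tang (5.76%). At the low doses they were 4 for Astragali Radix (40.7%), 0 for Cinnamomi Cortex (13.2%), 2 for Palmul-tang (9.84%), 2 for Sagunja-tang (14.1%), 1 for Samul-tang (11.3%) and 0 for Sibjeondaebo-tang (9.61%). Where edgeR called 0, 3 genes for Cinnamomi Cortex and 4 for Sibjeondaebo-tang had an unadjusted p below 0.05, and DESeq2 called 1 in each. Without low-dose Astragali Radix replicates 1 and 2 the count at that dose was again 4, where 15.9% of all genes were called, with CRABP2 in place of RARB. In that fit the calls over all extracts were 29 at the high, 27 at the medium and 18 at the low doses, against 24, 16 and 9. For comparisons that do not hold low-dose Astragali Radix, the share of all genes called in that fit was not counted. The higher counts there are not read as a result about these genes. The list was chosen with these results known, so nothing is read from the counts about the list.

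Within extracts 4 of the 7 genes had a called dose step for Astragali Radix, where 70.0% of all genes had one, and 2 each for Palmul-tang (3.68%), Sagunja-tang (3.78%), Samul-tang (1.41%) and Sibjeondaebo-tang (21.3%). The median step of the 7 genes was -0.23 for Astragali Radix, beside -0.06 over all genes tested. Without low-dose replicates 1 and 2 the median step of the 7 was -0.010, beside -0.02 over all genes, and 4 steps were called where 65.5% of all genes were, with CRABP2 in place of DHRS3. Between formulas at 500 µg/mL 4 of the 7 were called for Sagunja-tang against Samul-tang (4.70% of all genes), 2 for Palmul-tang against Sagunja-tang (0.916%), 1 for Palmul-tang against Samul-tang (1.69%) and 1, DHRS3, for Sibjeondaebo-tang against Palmul-tang (5.45%).

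Rehmanniae Radix Preparata had 1 library per dose, so its values carry no test. ALDH1A3 read 769, 712 and 1153 CPM at 20, 100 and 500 µg/mL, beside 645 to 658 CPM in the vehicle on the same scaling. The high-dose library stood 1.77-fold above the vehicle mean. All of Samul-tang, Palmul-tang and Sibjeondaebo-tang contain this herb, and the ALDH1A3 step was called with Samul-tang and not with Palmul-tang (0.04 ± 0.03) or Sibjeondaebo-tang (0.03 ± 0.03). The part of the herb in the values of these formulas was not tested. CRABP2 read 3.18 CPM at the high dose, 0.655 of the vehicle mean, and STRA6 81.4 CPM, 0.841 of it. DHRS3 read 30.6, 26.1 and 27.3 CPM, RARB 16.9 CPM at the high dose, and CYP26B1 and RDH10 lay between 1.01 and 1.13 times the vehicle mean in all 3 libraries.

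Across 16 group means (the vehicle and the 3 doses of the 5 replicated extracts other than Astragali Radix) the 7 genes did not share one pattern. The highest correlation among them was between DHRS3 and CYP26B1, with Pearson's r = 0.755 on log2 CPM, and the lowest between ALDH1A3 and CRABP2, r = -0.408. DHRS3 also correlated with RARB at 0.645 and with STRA6 at 0.641, while DHRS3 and RDH10 had r = 0.4301. These are descriptions over group means that share the vehicle, the doses and the sample sets. By the same measure the genes most like DHRS3 were DCLK1 (r = 0.924), VSIR (r = 0.903) and HOXA-AS2 (r = 0.882), and those most like ALDH1A3 were GDA (r = 0.946), VIPR1 (r = 0.896) and ABCG2 (r = 0.871). For CYP26B1 they were TEAD2 (r = 0.871), PADI1 (r = 0.8703) and PATZ1 (r = 0.868), and for RARB USP1 (r = 0.7996), GPRC5A (r = 0.794) and FAM200B (r = 0.791). For STRA6 they were SKIL (r = 0.954), TSPAN18 (r = 0.954) and UACA (r = 0.944). CRABP2 was followed most closely by FAM110A (r = 0.905), CSRNP2 (r = 0.904) and JUNB (r = 0.903), and RDH10 by DCUN1D4 (r = 0.947), PPM1B (r = 0.887) and MBL1P (r = 0.8803).

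The wider pathway was described through 51 further genes in 5 groups, of which 38 passed the filter. Among carriers, retinol and retinal enzymes, receptors with their co-regulators and genes known to respond to retinoic acid, 3 of 5, 9 of 15, 10 of 11 and 16 of 17 could be tested. None of ALDH1A2, ALDH8A1 and CYP26C1, the other enzymes that make or clear retinoic acid on the list, passed the filter. At the high doses 25 of the 38 were called for Astragali Radix, 12 for Cinnamomi Cortex, 9 for Palmul-tang, 12 for Sagunja-tang, 10 for Samul-tang and 11 for Sibjeondaebo-tang, beside the background shares given above.

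Of 16 tested genes known to respond to retinoic acid, 11 were called lower and none higher at the high dose of Astragali Radix. Their median was log2 -0.71, beside -0.06 over all genes. In that comparison 35.6% of all genes were called lower. This list too was chosen with earlier results of these data known, so nothing is read from these counts about the list. The largest changes among the pathway genes were in the homeobox genes MEIS2 (log2 -1.98 ± 0.07), HOXB4 (-1.97 ± 0.09) and MEIS1 (-1.63 ± 0.11). The nuclear receptor co-activator gene NCOA3 rose by log2 1.62 ± 0.12. All 4 were called. Between the low and high dose of Astragali Radix the same 4 led, with steps of 1.05 for NCOA3, -0.97 for HOXB4, -0.94 for MEIS2 and -0.77 for MEIS1, among 26 of the 38 called where 70.0% of all genes were. Without low-dose replicates 1 and 2 the steps were 0.74 for NCOA3, -0.94 for HOXB4, -0.99 for MEIS2 and -0.83 for MEIS1, all still called, among 25 of 39 tested pathway genes called. The summed markers of other cell types were also lower at this dose, as given above, and their part in these values was not tested.

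Several pathway genes differed from the vehicle by much the same amount at each dose of an extract. RARA, the gene of another retinoic acid receptor, was called lower than the vehicle in all 18 groups, also without low-dose Astragali Radix replicates 1 and 2, with log2 values of -0.47, -0.41 and -0.44 at low, medium and high Sagunja-tang and -0.43, -0.42 and -0.47 for Cinnamomi Cortex, where its dose steps were not called. The receptor gene RXRB went the other way and was called higher than the vehicle in all 18 groups with all libraries in the fit. Its log2 value at low-dose Astragali Radix was 0.44 in that fit, and 0.18 without replicates 1 and 2. HOXB2, a homeobox gene, gave -0.52, -0.51 and -0.61 for Sagunja-tang. For such genes extract and sample set cannot be told apart. The carrier RBP4 (log2 1.19), the carotenoid oxygenase BCO2 (1.13), HOXB2 (-0.64) and the dehydrogenase DHRS9 (0.59) led at high-dose Cinnamomi Cortex. BCO2 (1.05), DHRS9 (0.68), HOXB2 and the repressor gene HIC1 (-0.55) led at high-dose Sagunja-tang. At high-dose Samul-tang the leading genes included BCO2 (1.07), RARA (-0.63) and the transglutaminase TGM2 (-0.56). RARA (-0.59), HOXB2 (-0.56) and DHRS9 (0.55) were among the leading genes at high-dose Palmul-tang, and DHRS9 (0.62), HIC1 (-0.62) and HOXB2 (-0.55) at high-dose Sibjeondaebo-tang. These counts and values are on low transcript levels for BCO2, whose vehicle libraries averaged 0.439 ± 0.166 CPM (SD, n = 3). RBP4 was also low, with a median of 0.237 CPM over the 57 libraries of the fit, against 0.719 for BCO2. It collected at most 15 counts in any of the 60 libraries. Leaving out vehicle replicate 1 ended the calls of BCO2 in all 3 of these extracts, with values over the leave-outs of 0.86 to 1.35 for Cinnamomi Cortex, 0.74 to 1.40 for Sagunja-tang and 0.80 to 1.29 for Samul-tang. The call of RBP4 was lost in 4 of 6 leave-outs, at 1.00 to 1.57, and that of DHRS9 with Palmul-tang without vehicle replicate 3, within 0.45 to 0.72. With no filter on low counts both of these calls were lost, and with DESeq2 that of RBP4.

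**Figure D4:**
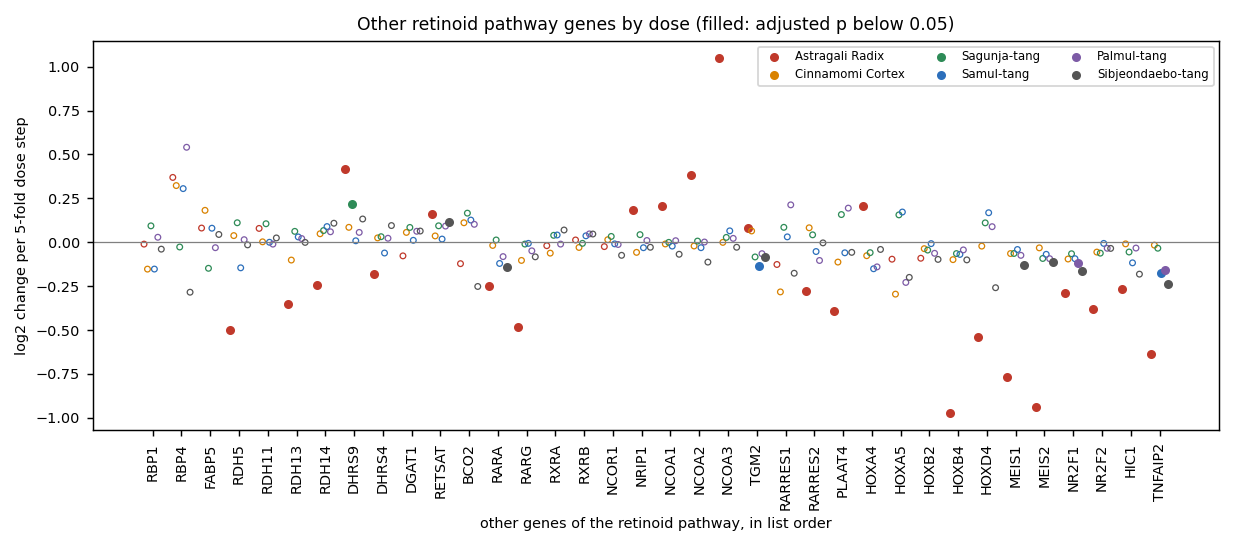
Change per 5-fold dose step (log2) of 36 of the 38 tested pathway genes within each extract, in the order of the list, with called genes as filled points. The Astragali Radix values spread from -0.97 (HOXB4) to 1.05 (NCOA3), and those of the other extracts from -0.30 (HOXA5, Cinnamomi Cortex) to 0.54 (RBP4, Palmul-tang), neither of them called. HOXA5 and RBP4 had low levels, with medians of 0.703 and 0.237 CPM over the 57 libraries.

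Within the other extracts few pathway genes changed with dose. Sibjeondaebo-tang had 8 of 38 called where 21.3% of all genes were, among them TNFAIP2 (step -0.24 ± 0.04), the nuclear receptor gene NR2F1 (-0.17 ± 0.03) and RARA (-0.14 ± 0.03). Of 16 genes known to respond to retinoic acid 6 fell with dose of Sibjeondaebo-tang and none rose, where 10.7% of all genes were called lower. As for Astragali Radix, nothing is read from this count about the list. TNFAIP2 also fell with Palmul-tang (-0.16 ± 0.04) and Samul-tang (-0.17 ± 0.04), NR2F1 with Palmul-tang (-0.12 ± 0.03) and TGM2 with Samul-tang (-0.14 ± 0.03). DHRS9 rose with Sagunja-tang (0.22 ± 0.06), the single pathway gene called there. Several of these small steps lost their call when 1 library was left out: TNFAIP2 with Palmul-tang in 5 of 6 leave-outs (-0.18 to -0.14) and with Samul-tang in 4 (-0.20 to -0.14), and DHRS9 with Sagunja-tang in 5 (0.18 to 0.26). NR2F1 with Palmul-tang lost it without high replicate 1 or low replicate 3 (-0.13 to -0.11), and TGM2 with Samul-tang without high replicate 2 (-0.15 to -0.12). The DHRS9 step also lost its call with DESeq2, with no filter on low counts and with only the groups compared in the fit. With no filter on low counts the Palmul-tang steps of TNFAIP2 and NR2F1 lost theirs too. For Cinnamomi Cortex 0 of the 38 were called by edgeR's quasi-likelihood test, where 6 had an unadjusted p below 0.05 and DESeq2 also called 0.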

How the data were processed

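RNA from SW1783 cells was sequenced in 60 libraries, with the MGIEasy directional kit and 100 bp paired-end reads per the labels' protocols. The deposited table holds expected counts that the authors made with RSEM 1.3.3 after FastQC 0.11.9, Trim Galore 0.6.5 and STAR 2.7.3a, per the submitters' processing notes. The annotation release and the strand setting of the counting are not given in the sources used here. The table has 279 columns, and the 219 that belong to no sample of this series were not used. Of the deposited values 90.8% were whole (tolerance 1e-09), and the values of 10684 genes that were not all whole were rounded.

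Symbols and positions came from GENCODE release 29 on GRCh38, which named 56558 of 60675 identifiers, and promoter windows from RefSeq on GRCh38.p14. CPM values use TMM scaling, over 57 libraries, or over 60 where Rehmanniae Radix Preparata is described. One edgeR model held 57 libraries, those of the 19 groups with 3 replicates (edgeR version 4.0.16, quasi-likelihood F test, filterByExpr, 1 mean per group). Calls were made below a Benjamini-Hochberg adjusted p of 0.05 over 17676 genes, in 28 comparisons. An SE was obtained as the absolute log2 ratio over the root of F. DESeq2 (version 1.42.0) was an alternative. The script was tested on simulated data. The members and lists were chosen with earlier results of these data known. Pathway genes are named by a rule: for each high dose and each dose step, up to 4 called genes with the largest change. RXRB is named outside this rule, beside RARA. Of the genes this rule names, 2 are counted in the totals and not reported here. The genes most like a member are the 3 with the highest correlation over 16 group means.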

Additional observations from a re-analysis of the deposited data

How the results depend on the processing

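Leaving out each library of the groups compared in turn, the number of called values among the retinoid genes ran from 22 to 25 at the high doses (24 with all libraries), 12 to 19 at the medium doses (16), 7 to 14 at the low doses (9), 13 to 19 for dose steps (14) and 6 to 8 between formulas (8). For the pathway genes it ran from 36 to 52 for dose steps (39) and from 62 to 78 at the high doses (79). The 14 at the low doses came without Astragali Radix low replicate 2. Of 71 calls of retinoid genes, 53 held in every leave-out and 49 in every setting run, of which 3 of 9 at the low doses. With only the groups compared in the fit, the counts were 30 at the medium doses, 19 at the low doses, 13 between formulas and 119 for pathway genes at the high doses, while that fit ended the called low-dose Astragali Radix values of STRA6, DHRS3, ALDH1A3 and RARB and the Astragali Radix step of DHRS3. Without Astragali Radix low replicates 1 and 2 they were 18 at the low doses and 66 for pathway dose steps. That fit, extended after seeing the data to comparisons that do not hold this group, gave 27 at the medium doses, 13 between formulas and 123 for pathway genes at the high doses. Except for comparisons with low-dose Astragali Radix, the shares of all genes called in these refits were not counted, so a changed count is not read as particular to these genes. Scaling, filter, rounding, DESeq2 and the removal of length and GC trends, which was chosen after seeing the data, moved no count by over 1.5 times.

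The replicate numbers were not taken to pair the libraries, since the labels name no shared source. The median correlation of deviations was 0.009 for the same number, with a smallest value of -0.142, and -0.005 for other numbers. By average correlation 38 of 57 libraries were closest to their own number, where equal shares would give 19. Whether libraries of the same number share a source was not tested. With the replicate number as a block the counts were 24 at the high, 16 at the medium and 10 at the low doses, 14 for dose steps, 8 between formulas, and 39 and 81 for pathway genes in dose steps and at the high doses.

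Sign changes occurred in values close to 0, except for the DHRS3 step with Astragali Radix. That step, -0.23 and called with all libraries, was 0.015 without low replicates 1 and 2, and the cause was not tested. After trend removal RDH10 with high-dose Sibjeondaebo-tang was 0.027, and the Sagunja-tang steps of ALDH1A3 and CRABP2 were -0.00084 and -0.0089. Over the leave-outs RDH10 ran from -0.028 to 0.065 with high-dose Astragali Radix, -0.041 to 0.014 with high-dose Sibjeondaebo-tang, and -0.046 to 0.00099 and -0.015 to 0.046 in its Astragali Radix and Samul-tang steps. CYP26B1 ran from -0.044 to 0.0060 with high-dose Samul-tang and -0.087 to 0.12 with high-dose Sibjeondaebo-tang. Steps of CRABP2 ran from -0.017 to 0.17 for Astragali Radix, -0.0042 to 0.036 for Sagunja-tang and -0.048 to 0.067 for Sibjeondaebo-tang. Depth limits ALDH1A1 and CYP26A1, and 3 libraries per group limit the rest.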
